A study of Mus musculus with 4 samples.

Results

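The proteins of the cytosolic ribosome were followed by their messenger RNAs in the aorta of mice that lack apolipoprotein E. Members were chosen by name alone, as every probe set that the platform's annotation assigns to 1 gene called Rpl or Rps plus a number, or Rplp0, Rplp1, Rplp2 or Rpsa. Kinases (6 probe sets) and pseudogenes (2 probe sets) were left out. This gave 99 of 22626 probe sets, for 47 genes, of which 46 probe sets (26 genes) belong to the large and 53 (21 genes) to the small subunit. A further 102 probe sets name a ribosomal protein gene together with other genes and are not members. Because of this 30 ribosomal protein genes, among them Rplp1, Rpl3, Rpl5 and Rpl10, have no member probe set.

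All 4 groups were female apoE-/- mice of 6 weeks, weaned at 3 weeks. They were of either the C57BL/6 or the C3H/HeJ strain (C3H below). In each strain 1 group stayed on chow and 1 group ate a Western diet from 4 weeks of age, for 2 weeks. Each group had 1 Affymetrix array hybridised with biotin-labelled cRNA made from total aortic RNA, and the sources used here do not say whether an array holds 1 animal or a pool. With no replicate in any group, the values below carry no error between animals, and precision is limited by having 4 arrays.

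The ribosome is built from a small subunit, which decodes the messenger RNA, and a large subunit, which joins amino acids. Each holds a single copy of most of its proteins, so their synthesis is known to be kept in balance. In mammals these genes are transcribed strongly in almost all cells, and their messages start with a C followed by a run of pyrimidines. This start, the terminal oligopyrimidine (TOP) tract, is known to make their translation respond to the growth regulator mTOR. A few members have paralogs named with an l, such as Rpl22l1 and Rps27l, several of which are known to differ from the parent gene in tissue or regulation.

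Start sites of 7 members are shown, because the tract at the start is the trait by which these genes are known and because 2 of the 7 had the largest strain differences on chow. The lines give 15 bases before to 15 after the start annotated by RefSeq (GRCm38.p6), 5′ to 3′ on the gene's strand, with CTTTC or CTTTT in capitals where it lies within 5 bases before to 15 after the start.
Rplp2 (chr7:141447636-141447665, + strand): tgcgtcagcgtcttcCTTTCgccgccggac
Rpl38 (chr11:114668565-114668594, + strand): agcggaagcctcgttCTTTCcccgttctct
Rpl35 (chr2:39005117-39005146, - strand): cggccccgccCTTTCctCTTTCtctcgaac
Rps6 (chr4:86857353-86857382, - strand): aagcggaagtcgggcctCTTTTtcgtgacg
Rps27 (chr3:90213634-90213663, - strand): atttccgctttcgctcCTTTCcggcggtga
Rpl22l1 (chr3:28805493-28805522, + strand): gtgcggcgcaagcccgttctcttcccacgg
Rpl7l1 (chr17:46782642-46782671, - strand): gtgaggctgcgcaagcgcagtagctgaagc

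Of the 47 member genes, 42 matched the RefSeq promoter table. The letters CTTTC or CTTTT on the sense strand stood near the start in 11 of 42 (26.2%), against 1330 of 27025 genes of the table (4.92%). They were found in 7 of 24 large-subunit genes (29.2%) and 4 of 18 small-subunit genes (22.2%). In the 300-base window, on either strand, CCGGAAG (a core of ETS factor motifs) stood in 21 of 42 member genes and 9.93% of all genes, CCGCCC (a core of GC boxes) in 24 of 42 (57.1%) and 38.2%, and TATAAA in 6 of 42 (14.3%) and 15.7%. A match of letters is a description of the window only. Of the genes printed, the paralogs Rpl22l1 and Rpl7l1 did not have the searched letters at the start. Most member genes lacked them too, among them the core genes Rpl4, Rpl6, Rpl19, Rplp0 and Rps19, so the lack is not particular to paralogs. The search does not define a TOP tract, and a gene without these letters may still have one. The window of Rpl22l1 shows another run of pyrimidines just after its start.

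Signals were high and in a narrow range for most members. Values at or under the 40th percentile of the quantile-normalized data, a signal of 83.6 called the floor here, were treated as not measured. Of the 99 probe sets, 77 were above the floor on all arrays, 14 on 1 to 3 arrays and 8 on none. Over all 22626 probe sets, 8740 were above it on all arrays. Taking each gene's brightest probe set, 42 of 47 genes were above the floor on all arrays, and 32 had a mean signal over 4096. All 8 probe sets under the floor everywhere belonged to genes with a brighter probe set, such as Rps18, whose brightest set read 7297 to 10500 while 2 others read 9.84 to 53.7. The 5 genes whose brightest set was not above the floor on all arrays were Rpl12, Rpl14, Rpl3l, Rps25 and Rps6.

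Apoe, the disrupted gene, lay under the floor on every array (16.1 to 65.3), though the place of its only probe set relative to the disruption is unknown here. Smooth muscle markers, the defining genes of the aortic wall, were above the floor on all arrays (10 of 10). Several measures set the C3H chow array apart. Its actin 3′/5′ signal ratio, a sign of RNA length, was 2.28 against 1.63 to 1.83, while its Gapdh ratio of 1.19 lay within the 1.03 to 1.28 of the other arrays. The summed signal of the 10 smooth muscle markers was 46472 there and 74422 to 104601 elsewhere. That of 9 brown adipocyte markers was 140749 there against 78361 to 102513. Fibroblast matrix markers (9) summed to 17986 there. They summed to 71308 on C57BL/6 chow, 25999 on C57BL/6 Western and 34352 on C3H Western, so for them C57BL/6 chow stood furthest from the rest. With diet in C57BL/6, 7 of these 9 markers were at least 1.5-fold lower (77.8%, against 14.1% of all probe sets). The 11 heart muscle markers summed to 19554 and 15203 in C57BL/6 (chow, then Western) and to 1101 and 943 in C3H. The strain comparisons on both diets thus set arrays of unlike heart muscle signal against each other. Every comparison on chow between strains, and every diet comparison in C3H, uses the C3H chow array. The part of all these shifts in the results below was not tested. In bulk tissue, fewer cells of a type and less RNA per cell cannot be told apart.

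The first question was how ribosomal protein messages differ between the strains. On chow, member signals were on balance slightly lower in C3H, with a median log2 difference of -0.14 over the 79 sets measured on both arrays, where all 10522 such probe sets had a median of 0.03. Of the 79, 50 were below 0 and 27 above, and of all probe sets 5071 were below and 5445 above. At 1.5-fold, 3 members were higher in C3H and 6 lower, which is 3.80% and 7.59%, against 21.1% and 20.1% of all probe sets. On Western diet the median was 0.09 over 79 members (0.01 over all 10956 probe sets), with 51 above 0 and 28 below. At 1.5-fold, 4 were higher and 4 lower (5.06% each), against 13.5% and 13.6% of all. The members' shares past 1.5-fold thus lay below those of the whole array on both diets. On both diets the scatter was narrower too. The SD of log2 differences was 0.44 on chow and 0.34 on Western diet for members, against 0.76 and 0.58 for all probe sets. Members and the array were not matched for signal, here or in the diet comparisons. Split by mean signal, the 17 dimmer measured members were at least 1.5-fold higher in 17.6% and lower in 5.88% on chow. On Western diet these shares were 23.5% and 11.8%. For the 62 brighter members they were 0.0% and 8.06% on chow and 0.0% and 3.23% on Western diet. The part of signal in the narrower spread was not tested.

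Scaling moved these small medians. With the deposited values the chow median was -0.06 and the Western median 0.04. With equal array medians they were -0.18 and -0.03, so that the sign on Western diet turned, while all measured probe sets then had medians of -0.06 and -0.04. The balance of the 1.5-fold counts on chow turned as well, to 5 members higher and 1 lower with the deposited values and to 5 and 3 with cyclic loess, while equal array medians gave 3 and 6. The share of all probe sets past 1.5-fold in these scalings is not given.

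No member passed an additive limma fit for strain (0 of 85 tested, Benjamini-Hochberg adjusted p under 0.05), against 57 of 14915 probe sets (0.382%). The fit's residual is the strain-by-diet interaction, with 1 degree of freedom beside a prior of 17.3. At an unadjusted p under 0.05 there were 2 of 85 members (2.35%), Rpl22l1 and Rpl7l1, and 873 of 14915 probe sets (5.85%).

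**Figure D1:**
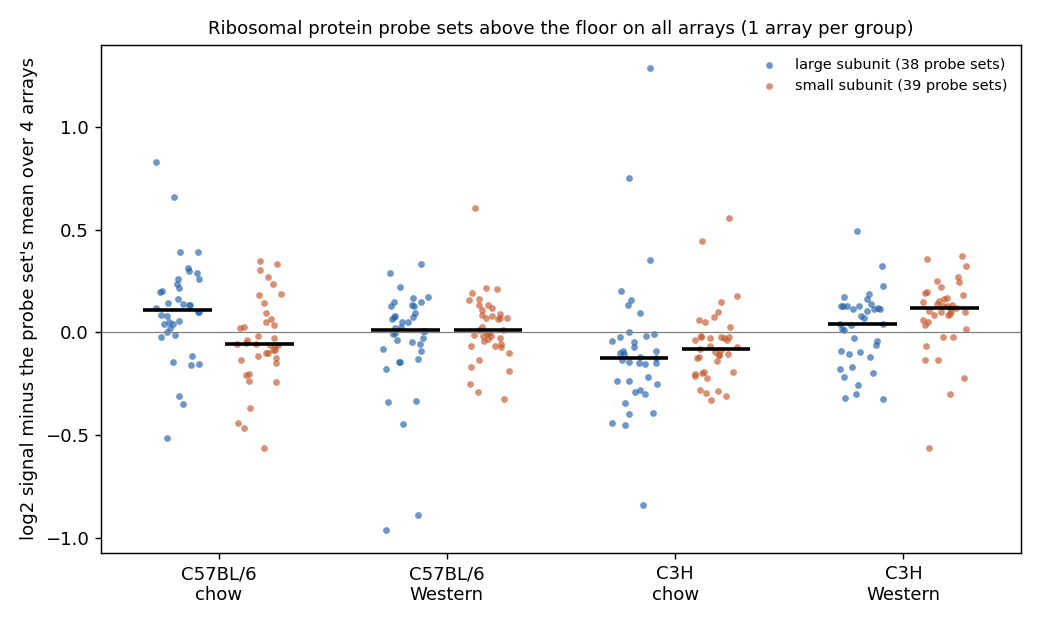
Log2 signal minus the probe set's own mean over the 4 arrays, for the 77 member probe sets measured on all arrays, with 1 point per probe set, blue for the large and orange for the small subunit, and black bars for medians. Medians lie between -0.12 and 0.12, the large subunit is highest on C57BL/6 chow (0.11) and lowest on C3H chow (-0.12), and the small subunit is highest on C3H Western (0.12).

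The large and the small subunit were compared by their differences between arrays, since signals of different probe sets are not on a common scale. On chow the large subunit's probe sets were lower in C3H by a median log2 of -0.26 (39 measured, 29 below 0 and 9 above), and the small subunit's by -0.03 (40 measured, 21 below and 18 above). The gap of -0.23 was -0.01 when each gene was represented by its brightest probe set, with medians of -0.25 for 23 large-subunit genes and -0.23 for 19 small-subunit genes. On Western diet the medians were 0.04 for the large and 0.13 for the small subunit, and by gene 0.03 and 0.12, an order that turned with plain _at sets only (large minus small 0.30). With plain _at sets only (13 measured) the chow gap was -0.41. Probe sets of 1 gene are not independent, and the reason for the spread of these gaps was not tested.

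The kind of probe set went with the size of the difference. On these arrays a name ending in _a_at marks a set that reads several transcripts of 1 gene, and one ending in _x_at a set with some probes that also match other sequences, which for ribosomal proteins include many processed pseudogenes. Members comprised 28 _a_at, 40 _x_at, 2 _s_at and 29 plain _at sets. On chow the 27 measured _a_at members had a median of -0.39 in C3H against C57BL/6, with 23 below 0, while the 37 measured _x_at members had a median of 0.00, with 18 below and 17 above. All _a_at and _x_at sets of the array had medians of 0.02 and 0.11, so the order was the same but the gap smaller. Within the _a_at sets the large subunit stood at -0.47 (14 sets) and the small at -0.30 (13 sets), and within the _x_at sets at -0.11 (15 sets) and 0.07 (22 sets). On Western diet the _a_at and _x_at medians were 0.02 and 0.11. Small-subunit members held 24 _x_at and 14 _a_at sets, and large-subunit members 16 and 14.

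**Figure D2:**
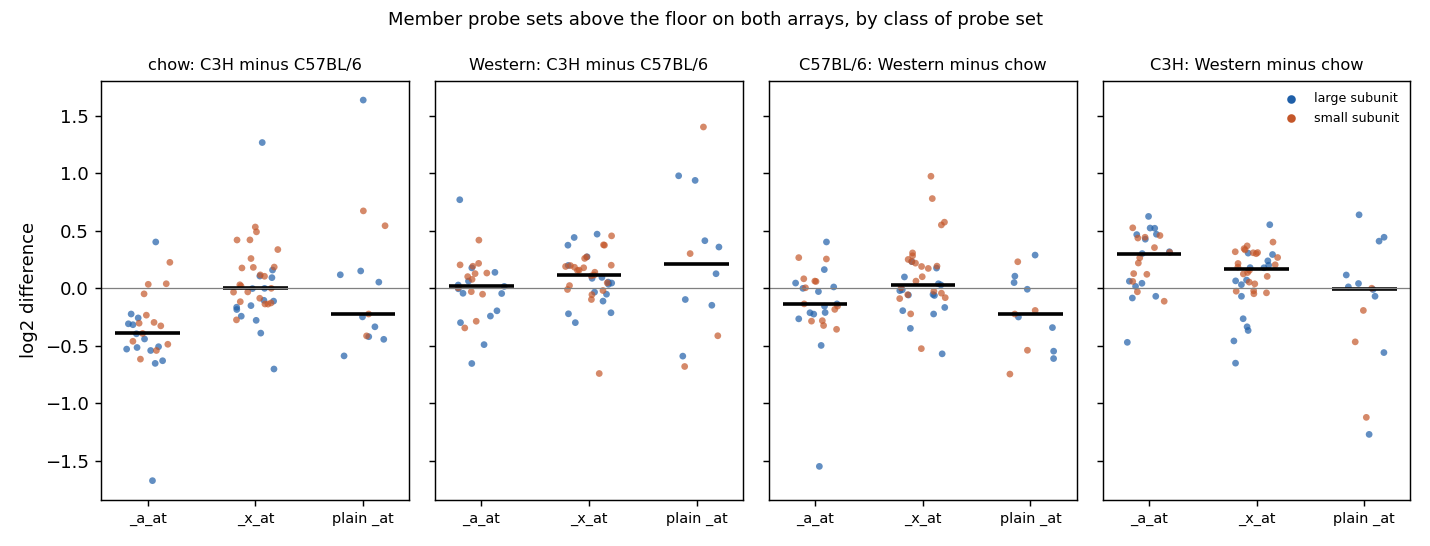
Log2 differences of member probe sets above the floor on both arrays, in the 4 comparisons, split by the ending of the probe set name, with 1 point per probe set coloured by subunit and black bars for medians (2 _s_at sets are not drawn). On chow the _a_at sets sit mostly below 0 (median -0.39) and the _x_at sets around 0 (median 0.00).

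On chow, the largest measured strain differences of single members came from 2 paralogs. On Western diet, by brightest set, Rps6 was highest (log2 1.40) and Rps27 lowest (-0.68). Rpl22l1 is the paralog of Rpl22, whose protein is known to hold down Rpl22l1 messages in mice. It lies on chromosome 3 (Entrez 68028) and is read by 1 _a_at probe set, with signals of 1417 and 1005 in C57BL/6 (chow, then Western) and 445.0 and 639.1 in C3H. Both C57BL/6 arrays were above both C3H arrays. For this and every gene below, the share of all probe sets with such an order is not given. An exact permutation of 2 against 2 arrays cannot give a 2-sided p under 0.333. C3H was 3.19-fold lower under chow and 1.57-fold lower under Western diet, with a fitted strain difference of log2 -1.16 (SE 0.34) and an adjusted p of 0.349 in limma. Over the 6 other settings of the fit the lowest adjusted p of any member ranged from 0.105 to 0.911. Rpl22 itself read 1191 and 1233 in C57BL/6 and 1237 and 1643 in C3H (chow, then Western) by its brighter set. C3H was thus 1.04-fold higher under chow, a direction that turned in each of the other 3 scalings, and 1.33-fold higher under Western diet, and its dimmer set (127.4 to 189.2) differed by log2 -0.51 and 0.09.

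Rpl7l1, a nucleolar relative of Rpl7 that takes part in making the large subunit, went the other way. It lies on chromosome 17 (Entrez 66229). Its brighter probe set read 169.3 and 110.9 in C57BL/6 (chow, then Western) and 526.4 and 218.5 in C3H. Both C3H arrays were above both C57BL/6 arrays, by 3.11-fold under chow and 1.97-fold under Western diet (fitted log2 1.31, SE 0.57, limma adjusted p = 0.802). Its other probe set read 232.9, 22.7, 171.3 and 116.4 in the same order. It did not show the difference on chow (log2 -0.44), and its C57BL/6 Western signal lay under the floor. Rpl7, the core protein, had a brightest set that read 6854 and 5990 in C57BL/6 and 4215 and 6184 in C3H, so that C3H was 1.63-fold lower under chow and 1.03-fold higher under Western diet. The chow value was under 1.5-fold with the deposited values (log2 -0.51) and cyclic loess (-0.57). Its other sets gave log2 -0.54 and -0.39 on chow.

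Of the 77 member probe sets measured on all arrays, 2 were at least 1.5-fold lower in C3H on both diets (2.60%, against 3.83% of 8740 probe sets) and 1 was higher (1.30%, against 3.41%). The lower ones were Rpl22l1 and Rpl27, the higher one Rpl7l1. Rpl27 only just passed, and its chow value was under 1.5-fold with the deposited values (log2 -0.46), equal array medians (-0.58) and cyclic loess (-0.50). Rpl27, a large-subunit protein, read 5084 and 5056 in C57BL/6 and 3384 and 3361 in C3H (chow, then Western), a log2 difference of -0.59 on each diet, and the signals did not overlap between strains. Its dimmer sets gave -0.51 and -0.16 on chow and -0.05 and 0.20 on Western diet. Rps15 of the small subunit was lower in C3H on both diets by both of its sets, by log2 -0.54 and -0.41 on chow and -0.29 and -0.41 on Western diet. Its brighter set read 11660 and 9574 in C57BL/6 and 8021 and 7855 in C3H, again without overlap. Rps15 was named after its values were seen, and how many of all probe sets lack overlap was not counted.

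**Figure D3:**
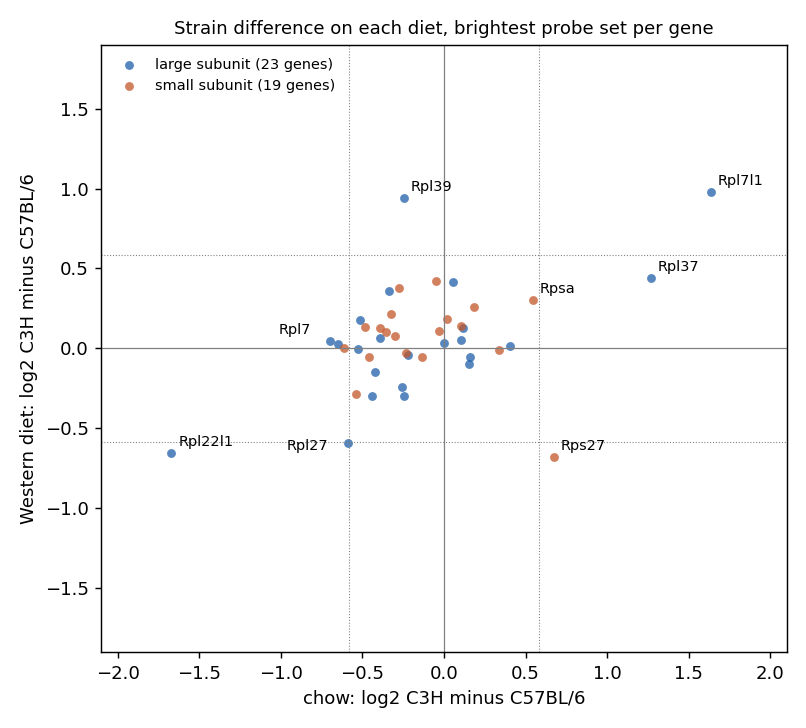
Log2 difference of C3H minus C57BL/6 on chow (horizontal) and on Western diet (vertical) for the 42 genes whose brightest probe set was above the floor on all arrays, 1 point per gene, with dotted lines at 1.5-fold. Most genes lie inside the dotted square, while Rpl22l1 is low and Rpl7l1 high on both axes.

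The comparisons on the 2 diets share no array. By brightest set, 10 of 42 genes were higher in C3H on both diets, 12 lower on both, 19 in opposite directions and 1 at 0. Over all 8740 probe sets these numbers were 2359, 2216, 4144 and 21. Among core proteins lower in C3H on chow only was Rpl6, a large-subunit protein, with 7114 against 4526 on chow (1.57-fold lower) and 6143 against 6267 on Western diet. Its chow value was also under 1.5-fold with the deposited values (log2 -0.46), equal array medians (-0.58) and cyclic loess (-0.52). Rpl37, read by 1 dim _x_at set, was higher in C3H by 2.41-fold under chow (189.6 against 456.3) and by 1.36-fold under Western diet (214.1 against 290.9). Rpl39, a short protein at the exit tunnel, was 1.19-fold lower on chow (268.2 against 225.9) and 1.92-fold higher on Western diet (183.7 against 351.9). Both of these signals were within a few-fold of the floor.

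Among the small-subunit members, Rps27 and Rps6 had large differences that also came from dim sets. Rps27 read 179.4 and 210.6 in C57BL/6 and 286.0 and 131.5 in C3H (chow, then Western), so C3H was 1.59-fold higher under chow (log2 0.57 and under 1.5-fold with equal array medians) and 1.60-fold lower under Western diet. Rps6, the substrate of S6 kinases, read 200.6 and 119.7 in C57BL/6 against 70.7 and 316.1 in C3H. The 70.7 is under the floor, so C3H was lower by at least 2.40-fold under chow, and it was 2.64-fold higher under Western diet. Both genes have the searched letters in the start windows printed above. Of the other genes near the floor, Rps25 read 187.3 on C3H chow and 80.2 on C57BL/6 chow, at least 2.24-fold higher in C3H, and Rpl12 (139.3 against 5.91) and Rpl14 (117.0 against 73.7) were at least 1.67-fold and 1.40-fold higher. Rpsa, the small-subunit protein also known as the laminin receptor precursor, read 6803 and 5830 in C57BL/6 and 9920 and 7187 in C3H. It was 1.46-fold (chow, and over 1.5-fold in each of the other 3 scalings) and 1.23-fold (Western) higher in C3H, opposite to most core members on chow, and both C3H arrays were above both C57BL/6 arrays.

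The stalk of the large subunit, which recruits elongation factors, is represented by Rplp0, its base, and Rplp2. Rplp0 read 8502 and 7152 in C57BL/6 (chow, then Western) and 6744 and 9172 in C3H, and the strains overlapped. Rplp2 read 12730 on C57BL/6 chow and 16840, 16840 and 17040 on the other arrays, so the C57BL/6 chow array was lowest by log2 0.40. The members of the stalk thus moved differently, with Rplp0 lowest and Rplp2 among the highest on C3H chow.

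Other members of known function lay inside 1.5-fold in both strain comparisons. Rpl11, which signals ribosome stress to the p53 regulator Mdm2, read 5842 and 6033 in C57BL/6 and 4889 and 5104 in C3H. Rps19, mutated in inherited anaemia of the Diamond-Blackfan type, read 5488 and 4518 in C57BL/6 and 3990 and 4360 in C3H. Rpl38, needed for translation of Hox messages in the embryo, stayed within 12000 to 14630. Rpl10a differed by log2 -0.40 on chow and 0.06 on Western diet, and the X-linked Rps4x by -0.49 and 0.13.

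**Figure D4:**
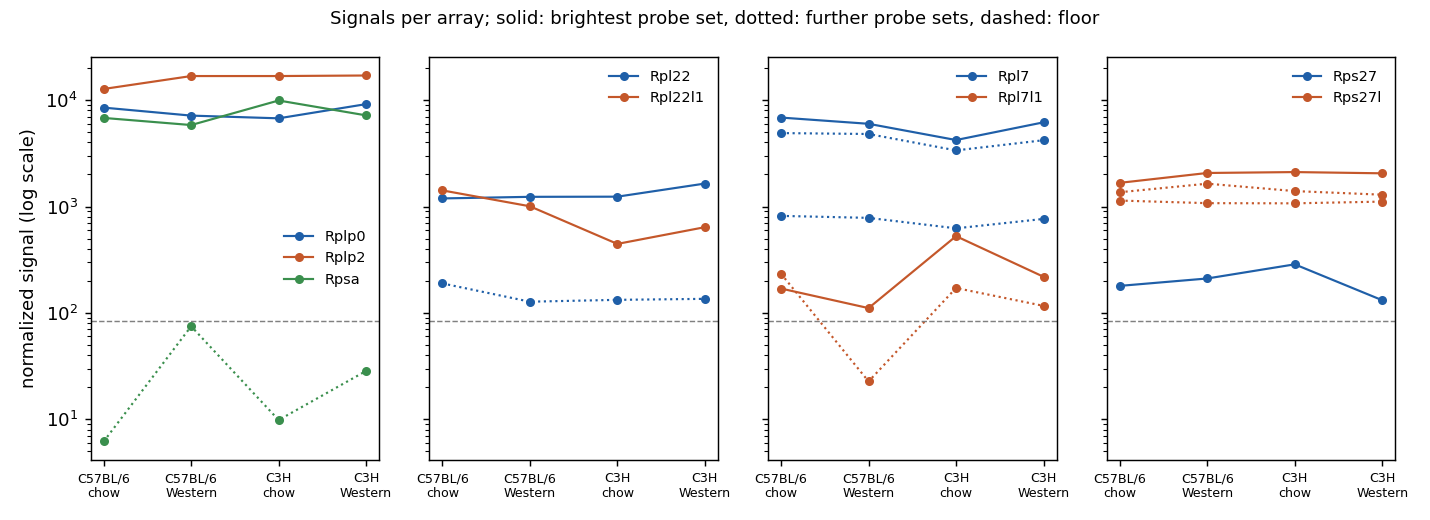
Normalized signals on the 4 arrays, on a log axis, for the stalk proteins with Rpsa and for 3 pairs of parent gene and paralog, with 1 line per probe set, solid for the brightest set of a gene and dotted for its further sets, and a dashed line at the floor of 83.6. Rpl22l1 reads 1417 on C57BL/6 chow and 445.0 on C3H chow while the brighter set of Rpl22 stays between 1191 and 1643.

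Of the remaining paralogs, Rps27l differed little and the others lay near the floor. Rps27l, a target of p53, had 3 probe sets above the floor, with strain differences from log2 -0.09 to 0.34 on chow and -0.34 to 0.05 on Western diet. Rpl39l, known best from testis, lay just above the floor at 84.1 to 118.0. Rpl3l, the paralog of Rpl3 made in heart and skeletal muscle, was above the floor only on C3H Western (96.9) and read 82.4 and 17.4 on the C57BL/6 arrays (chow, then Western) and 18.2 under chow in C3H. Of 11 heart muscle markers, 11 were above the floor on each C57BL/6 array and 4 on each C3H array, with signal sums of 19554 and 15203 for C57BL/6 and 1101 and 943 for C3H. Of 10 skeletal muscle markers, 8 and 4 were above the floor on C57BL/6 chow and Western and 5 and 7 on C3H chow and Western. Values under the floor have no order, so Rpl3l could not be set against these sums.

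The second question was the response to Western diet in each strain. In C57BL/6 the member median was log2 -0.03 over 79 probe sets (0.00 over all 10914), with 34 above 0 and 44 below. At 1.5-fold, 2 members were higher and 3 lower (2.53% and 3.80%), against 13.9% and 14.1% of all probe sets. In C3H the median was 0.14 over 81 probe sets (0.00 over all 10681), with 59 above 0 and 22 below. There 2 were at least 1.5-fold higher and 3 lower (2.47% and 3.70%), against 17.5% and 17.1% of all. With equal array medians the member medians became 0.15 in C57BL/6 and 0.26 in C3H, and those of all measured probe sets 0.08 and 0.11, so the sign in C57BL/6 depended on the scaling. With the deposited values they were 0.05 and 0.11.

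No member passed limma for diet (0 of 85, and 0 of 14915 probe sets, 0.0%), and at an unadjusted p under 0.05 there were 0 members and 367 probe sets. The diet fit took both strains together.

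By subunit, the C57BL/6 diet medians were -0.06 (large) and 0.01 (small), and those in C3H 0.07 and 0.20. Counting each gene by its brightest set gave -0.05 (large) and -0.09 (small) for C57BL/6 and 0.06 and 0.27 for C3H, so the order of the subunits in C57BL/6 depended on the counting of probe sets. In C3H the small subunit was higher by both counts, but the order turned with plain _at sets only (large minus small 0.36) and when probe sets of several genes were added (0.03). In C3H, 31 of 40 small-subunit and 28 of 41 large-subunit probe sets were above 0. The C3H _a_at and _x_at medians were 0.30 (22 of 27 above 0) and 0.17 (28 of 38 above 0).

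The outermost genes in C57BL/6 were taken by brightest set. Rps6 was 1.68-fold lower on Western diet, Rpl7l1 1.53-fold lower and Rpl39 1.46-fold lower, all from dim sets. Rplp2 was 1.32-fold higher, Rps27l 1.24-fold higher and Rpl27a 1.22-fold higher. Further values, 3 in all, came from probe sets that other sets of the same gene did not share. An _x_at set of Rps28 read 5028 on chow and 9878 on Western diet (log2 0.97), while the other sets of Rps28 gave 0.22 and 0.06. An _x_at set of Rps10 read 360.1 on chow and 618.5 on Western diet (log2 0.78), while its other measured sets gave -0.15 to 0.08. A dim set of Rpl13a, a protein also known for silencing inflammatory messages when released from the ribosome, read 360.5 on chow and 123.3 on Western diet (log2 -1.55), while its other sets gave -0.22 to 0.10.

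In C3H, Rpl7l1 was 2.41-fold lower on Western diet (526.4 to 218.5), Rps27 2.18-fold lower (286.0 to 131.5) and Rpl37 1.57-fold lower (456.3 to 290.9, but under 1.5-fold, at log2 -0.48, with equal array medians). Rpl39 was 1.56-fold higher, Rpl7 1.47-fold higher (4215 to 6184) and Rps18 1.44-fold higher (7297 to 10500). Rps6 was at least 3.78-fold higher, from under the floor to 316.1. These 6 measured genes were on C3H chow at the far end of their 4 signals, except Rpl39, whose lowest signal was on C57BL/6 Western. They were picked by a difference that holds the C3H chow signal, and this choice itself favours such a place.

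**Figure D5:**
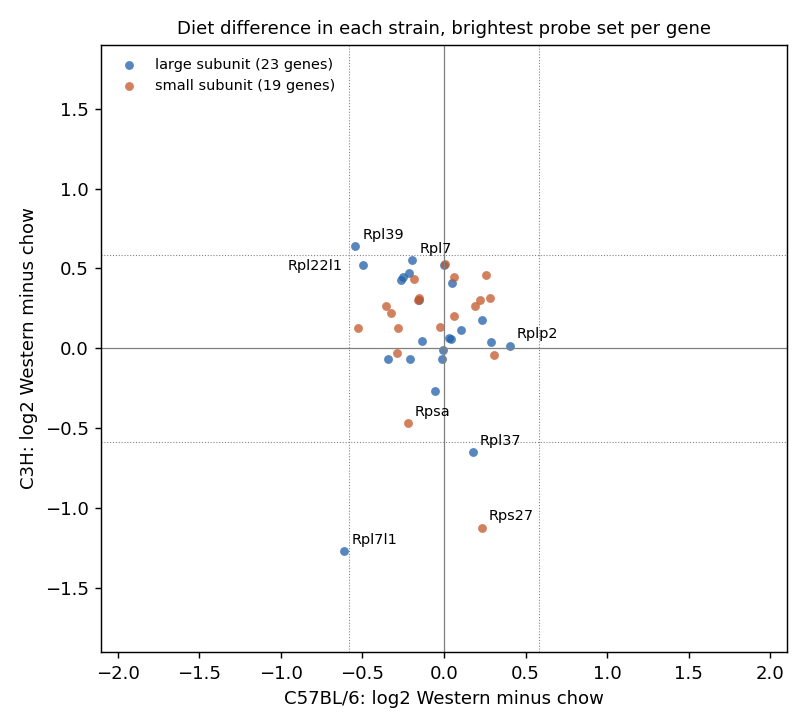
Log2 difference of Western diet minus chow in C57BL/6 (horizontal) and in C3H (vertical) for the same 42 genes, 1 point per gene, with dotted lines at 1.5-fold. More genes lie above than below 0 on the vertical axis, and Rpl7l1, Rps27 and Rpl37 lie lowest on it.

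The strains' responses share no array either. By brightest set, 14 of 42 genes were higher with Western diet in both strains, 8 lower in both, 19 opposite and 1 at 0. Among the 77 members measured on each array, 0 went at least 1.5-fold in opposite directions, against 545 of 8740 probe sets (6.24%). Rps6 is not among the 77, because its C3H chow signal lay under the floor. By its brightest set Rps6 was 1.68-fold lower with Western diet in C57BL/6 and at least 3.78-fold higher in C3H. The C3H response minus the C57BL/6 response had a median of log2 0.16 over 77 members (-0.01 over 8740 probe sets), with 55 above 0. It was at least 1.5-fold higher for 12 and lower for 4, against 24.9% and 24.8% of all probe sets. Genes were ranked by brightest set where it was above the floor on all arrays, which leaves out Rps6. The highest were then Rpl39 (1.19), Rpl22l1 (1.02) and Rpl7 (0.75), and the lowest Rps27 (-1.35), Rpl37 (-0.83) and Rpl7l1 (-0.66). Rpl22l1 was 1.41-fold lower with Western diet in C57BL/6 and 1.44-fold higher in C3H. With 4 arrays the difference of responses has no residual to be tested against.

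Probe sets of the same gene gave a scale for these values. Within a comparison, sets of 1 member gene scattered with a pooled SD of log2 0.34 for strain on chow, 0.26 for strain on Western diet, 0.36 for diet in C57BL/6 and 0.22 for diet in C3H (18 or 19 genes). All members had SDs of 0.44, 0.34, 0.35 and 0.34. The SD of all members was thus close to that between sets of 1 gene for diet in C57BL/6 and wider in the other comparisons. It also holds the scatter between sets of 1 gene and takes in genes with 1 set, so the SDs cover unlike sets. The widest ranges belonged to Rpl13a (log2 1.65 within 1 comparison), Rps10 (0.93), Rps28 (0.92), Rps18 (0.88) and Rpl35 (0.80). Rps18 on chow went from -0.39 by its _a_at set to 0.49 by an _x_at set, and Rpl35, with its repeated CTTTC at the start, from -0.32 by its _a_at set to 0.09 by an _x_at set.

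Genes that work beside the ribosome were read as lists. Elongation factors and other TOP messages (15 of 16 on the array, all measured) had medians of log2 -0.25 for strain on chow, -0.09 for strain on Western diet, -0.09 for diet in C57BL/6 and 0.24 for diet in C3H. At 1.5-fold 0 were higher and 2 lower in C3H on chow (13.3%, against 20.1% of all probe sets), and 2 were higher and 1 lower with Western diet in C3H (13.3% and 6.67%, against 17.5% and 17.1%). By brightest set per gene the members stood at -0.25, 0.05, -0.05 and 0.18. Mitochondrial ribosomal proteins, which build a separate ribosome inside mitochondria, had medians of 0.28 (71 measured), 0.01 (72), 0.08 (73) and -0.10 (70), with 17 higher and 8 lower in C3H on chow (23.9% and 11.3%, against 21.1% and 20.1% of all probe sets). Ribosome assembly genes had medians of 0.27 (19 measured), 0.09 (22), 0.05 (20) and -0.01 (21), with 6 higher and 1 lower on chow (31.6% and 5.26%). Initiation factors (10 measured) had 0.31, 0.24, 0.11 and 0.10. On chow the median of the TOP list thus lay on the same side of 0 as that of the members, and those of the other 3 lists on the opposite side. Each list was split, with 9 below and 6 above 0 for TOP messages. Above and below 0 were 46 and 25 mitochondrial ribosomal proteins, 12 and 7 assembly genes, and 7 and 3 initiation factors. These values were not tested against each other.

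Genes with and without the searched letters at the start were set side by side, with no test. The 9 measured genes with them had a median strain difference of log2 0.00 on chow and the 28 without them -0.31. On Western diet these medians were 0.01 (10 genes) and 0.09 (28 genes). For diet in C57BL/6 they were 0.01 and -0.16, and for diet in C3H 0.04 and 0.27.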

How the data were processed

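Aortic RNA of 4 groups, 1 array each, was compared. The deposited values are linear intensities per probe set on an Affymetrix array. Per the labels' protocols they come from Trizol-extracted RNA, 8 ug per array. Which software made them is not given in the labels. All deposited arrays share a mean after trimming 2% (250.11 to 250.12). Control probe sets (64) were left out and values quantile normalized on the log2 scale, with a floor at the 40th percentile. A fold against a signal under the floor is a bound with that signal raised to the floor. Member symbols and Entrez identifiers matched the RefSeq table of GRCm38.p6 for all 99 probe sets. A count takes 1.5-fold with both arrays above the floor, with no test. The additive limma fit (limma 3.58.1, R 4.3.3, mean trend, Benjamini-Hochberg) took the 14915 probe sets that exceeded the floor on 2 or more arrays. It was tested on simulated data with changes larger than any measured member difference, which does not show whether it finds smaller ones. The smallest 2-sided p that an exact permutation of these arrays can give is 0.333. The rule for named genes took the 3 highest and 3 lowest genes per comparison by brightest probe set, the same for the difference of responses, the 5 widest disagreements between probe sets, and a fixed list of stalk proteins, paralog pairs and well-known members. Rps15, outside this rule, was named after its values were seen. Members and lists were chosen with earlier results of these data known. Other steps ran in Python 3.11.15 (numpy 2.4.6, pandas 2.3.3, matplotlib 3.10.9).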

Additional observations from a re-analysis of the deposited data

How the results depend on the processing

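No paired analysis was possible because each group has 1 array. Leaving out a replicate was not possible for the same reason. Of 180 comparisons of a main value with an alternative, 124 stayed within a tolerance of 0.1 (log2 medians) or 1.5 times (counts), which is wide beside medians this small. The sign turned in 4 of 38 checks of member medians and 5 of 38 of large-minus-small differences, among them the member median for diet in C57BL/6, 0.049 with the deposited values. With 1 probe set per gene the member median for strain on chow was -0.245, and the large-minus-small difference was -0.014 for strain on chow and 0.037 for diet in C57BL/6. The 1.5-fold counts were then 0 higher with diet in C57BL/6 and 1 higher in C3H. With plain _at sets only (12 to 14 measured), the large-minus-small difference turned to 0.298 for strain on Western diet, 0.094 for diet in C57BL/6 and 0.356 for diet in C3H, and moved to -0.408 for strain on chow. The member medians were then 0.215 for strain on Western diet, -0.223 for diet in C57BL/6 and -0.005 for diet in C3H. The counts were 1 lower for strain on chow, 2 lower on Western diet, 0 higher with diet in C57BL/6 and 1 higher in C3H, from fewer sets. With equal array medians the member medians were -0.031 for strain on Western diet, 0.145 for diet in C57BL/6 and 0.257 for diet in C3H. All measured probe sets then had a median of 0.112 for diet in C3H, and 4 members were higher with diet in C57BL/6 and 9 in C3H. The deposited values gave 5 higher and 1 lower for strain on chow and 6 lower for diet in C57BL/6. Cyclic loess gave 5 higher and 3 lower for strain on chow, 7 lower for diet in C57BL/6, and 1 higher and 5 lower for diet in C3H. A floor at the 25th percentile gave 7 higher for strain on chow, 5 higher for diet in C57BL/6 and 6 lower for diet in C3H. A floor at the 60th percentile gave 1 higher for strain on Western diet and 0 lower for diet in C57BL/6. At a looser fold limit the counts were 10 higher and 24 lower for strain on chow, 13 and 7 for strain on Western diet, 5 and 13 for diet in C57BL/6, and 19 and 9 for diet in C3H. At 2-fold they were 2 higher and 1 lower for strain on chow, 1 and 0 for strain on Western diet, 0 and 1 for diet in C57BL/6, and 0 and 2 for diet in C3H. Adding the probe sets of several genes, an alternative chosen after seeing the data, gave 7 higher and 14 lower for strain on chow, 10 and 7 for strain on Western diet, 6 lower for diet in C57BL/6, and 11 and 6 for diet in C3H, with a large-minus-small difference of 0.034 for diet in C3H. For all these alternative counts the share of all probe sets is not given. They therefore do not show a shift of members against the array. Apart from the changes that a threshold or fewer sets make by construction, the cause of the changes between settings was not tested. The normalization without the C3H chow array was also chosen after seeing the data. Over 3 other scalings the sign of a named gene's value turned in 46 of 306 checks, and in 0 of 57 checks of values past 1.5-fold. Of 19 such values, 6 fell short of 1.5-fold in at least 1 scaling (11 of 57 checks): Rpl6, Rpl7, Rpl27 and Rps27 for strain on chow, Rpl27 on Western diet and Rpl37 for diet in C3H. In 10 other checks a value passed 1.5-fold that had not. Signal near the floor limits Rps6, Rps27, Rpl37, Rpl39, Rpl39l and Rpl7l1.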

Other observations

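The 102 probe sets that name a ribosomal protein gene together with other genes, which are not members, had median log2 differences of -0.19 for strain on chow (85 measured, 58 below 0 and 26 above), 0.07 for strain on Western diet (84 measured), -0.05 for diet in C57BL/6 (83 measured) and 0.17 for diet in C3H (85 measured, 60 above 0). They were at least 1.5-fold higher in 4 and lower in 8 on chow (4.71% and 9.41%, against 21.1% and 20.1% of all probe sets), and higher in 9 and lower in 3 with Western diet in C3H (10.6% and 3.53%, against 17.5% and 17.1%). Split by name ending, the chow medians were -0.26 for 31 _a_at sets and -0.13 for 37 _x_at sets, a smaller gap than among the members. Fau, which encodes a ubiquitin-like protein fused to a small-subunit protein, was the 1 gene of 4 on the list of ribosomal proteins under other symbols with a probe set of its own. Its log2 differences were -0.17 for strain on chow, -0.19 for strain on Western diet, 0.02 for diet in C57BL/6 and -0.01 for diet in C3H.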
